A study of Mus musculus with 6 samples.

Results

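The genes described here are 46 genes of DNA replication and nucleotide synthesis, chosen by name from their roles in origin licensing, the replicative helicase, the DNA polymerases, the sliding clamp and its loader, the supply of deoxynucleotides and the copying of chromatin. Each name matched 1 of the 42256 genes in the deposited count table, and all 46 were among the 12862 genes abundant enough to be tested. They were measured by RNA sequencing in bone marrow-derived macrophages from adult male mice carrying the intact Cdh11 gene (CDH11+/+, called WT) or lacking it (CDH11-/-, called KO), all on a mixed 129S1/Sv x C57BL/6 background. The gene's product, cadherin-11, joins neighbouring mesenchymal cells to each other. Marrow cells were grown for 7 days with 20% L929-conditioned medium, a source of the macrophage growth factor CSF1, and 10% FBS, and received no further treatment. The labels do not describe the altered allele or how it was made. There were 3 WT and 3 KO libraries, numbered here within each genotype. The design text of the series speaks of 4 KO animals, the labels do not tie libraries to animals, and the p-values therefore measure the spread between these libraries.

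A cell that is to divide first loads the ring-shaped MCM helicase onto replication origins, using the origin recognition complex, Cdc6 and Cdt1. Cdc45 and the GINS proteins then join the ring and start it, and the polymerases, the clamp and the clamp loader copy both strands from deoxynucleotides made largely in the same phase of the cycle. Many of these genes are transcribed as cells enter S phase under the E2F transcription factors, whereas genes of mitosis follow later through CHR promoter elements. Macrophages grown from marrow divide in response to CSF1 before they leave the cycle, so transcripts of replication genes reflect both the share of dividing cells and the level in each of them, which cannot be told apart in RNA from whole dishes.

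Library totals ran from 27170943 to 37113689 counts, mitochondrial genes took 2.09 to 2.43% of them, and WT 1 was the deepest library. Cdh11 itself had 6 to 11 counts in WT and 4 to 6 in KO, too few to check the genotype labels. All 10 macrophage markers were present, with a summed level of 31770 to 34416 CPM (counts scaled to the size of the library) in WT and 20320 to 25986 CPM in KO, most of it from Lyz2; Csf1r, the CSF1 receptor, Lyz2 and Cd14 fell and Cd68 rose. The 8 erythroid markers and the 7 of T and NK cells were each below 1 CPM in all libraries, Alas2 having no count in any. So were 7 of 8 B cell markers, while Cd79b was at 3.19 to 6.11 CPM, and 6 of 7 fibroblast and stromal markers stayed below 1 CPM. The 7 markers of stem and progenitor cells, themselves dividing cells, summed to 4.65 to 6.91 CPM in WT and 7.48 to 9.34 CPM in KO; of the 6 tested 2 rose, Kit among them, and none fell. The 10 markers of granulocytes and their precursors summed to 34.6 to 88.0 CPM in WT and 41.7 to 116.9 CPM in KO, and none of the 9 tested passed. Of 6 megakaryocyte markers Itga2b and Ppbp rose, with Pf4 setting the sum of 167 to 243 CPM in WT and 177 to 282 CPM in KO. Beside these marker calls, 18.5% of all genes tested rose and 16.8% fell, by the test given below. The part of cells other than macrophages in the results below was not tested.

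Replication genes were higher in KO macrophages. Of the 46 genes 40 rose in KO, 6 did not pass the test and 0 fell, where over all 12862 genes 18.5% rose, 16.8% fell and 35.2% passed in either direction (edgeR's quasi-likelihood test, Benjamini-Hochberg adjusted p under 0.05 over all genes tested). The median log2 fold change of the 46 genes was 0.86, the median of all genes tested being 0.00, and single values ran from 0.02 for Rfc1 to 1.66 for Orc1. In 44 of the 46 genes every KO library lay above every WT library, as in 27.0% of all genes; counting both directions, 53.4% of all genes had no overlap. The 2 that overlapped were Pola2 and Rfc1. At least 2-fold rises were called for 14 of the 46 genes and for 3.66% of all genes. Together the 46 genes took 0.121, 0.105 and 0.149% of all counts in WT 1 to WT 3 and 0.195, 0.280 and 0.219% in KO 1 to KO 3.

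The direction was the same in every fit that was run except for Rfc1, but the number of calls at the adjusted threshold changed with single libraries. Leaving out WT 1 gave 12 calls, beside 7.93% of all genes rising. Leaving out WT 2 gave 26 (10.1%), WT 3 gave 39 (15.4%) and KO 1 gave 40 (21.3%). Either KO 2 or KO 3 left out gave 24 (10.9 and 10.1%), and testing with no filter on low counts gave 20 (9.56%). Counts at an unadjusted p under 0.05 in edgeR moved less, from 42 of the replication and nucleotide genes in the reported fit. Leaving out WT 1 or KO 2 gave 40, KO 3 gave 41, WT 2 gave 42, and WT 3 or KO 1 gave 43. With no filter on low counts 43 had such a p. Over all genes tested, 6172 had one in the reported fit, and 4860 (KO 2) to 6779 (KO 1) with 1 library left out. The 12 genes called in each of the 6 fits that leave out 1 library were Orc1, Cdt1, Gins1, Prim1, Prim2, Pold2, Pole2, Pcna, Rfc3, Rfc5, Fen1 and Dut. These 12 come from origin licensing, helicase activation, the polymerases and primase, the clamp and its loader, lagging-strand joining and nucleotide supply.

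**Figure D1:**
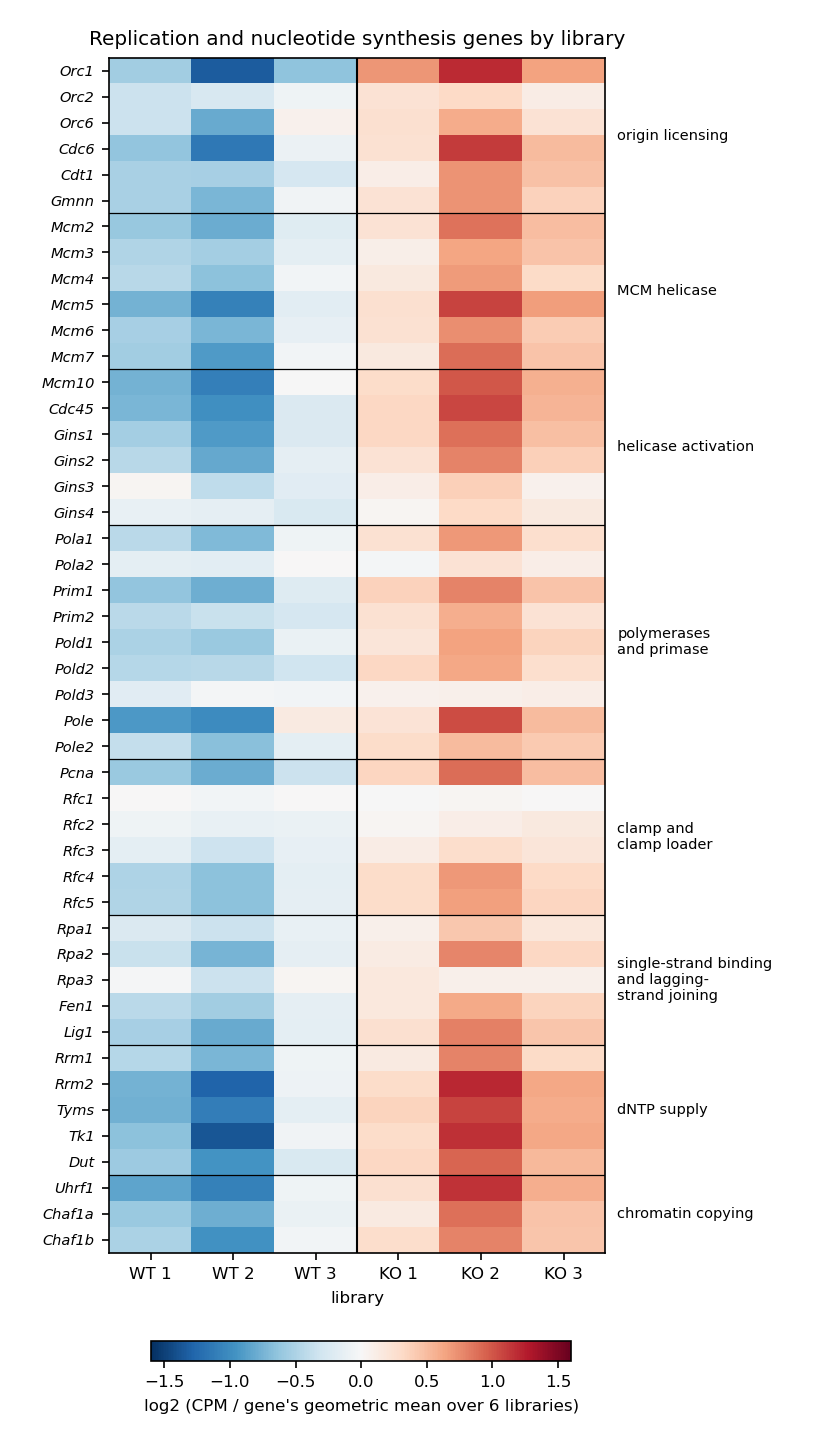
Heat map of the 46 genes (rows, grouped by role) in the 6 libraries (columns); colour gives the log2 ratio of a gene's CPM in a library to its geometric mean over the 6 libraries, red for higher and blue for lower. WT 2 is the deepest blue column for most genes, KO 2 the reddest, and Rfc1, Pold3 and Rfc2, the last of which passed the test, stay near white throughout.

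**Figure D2:**
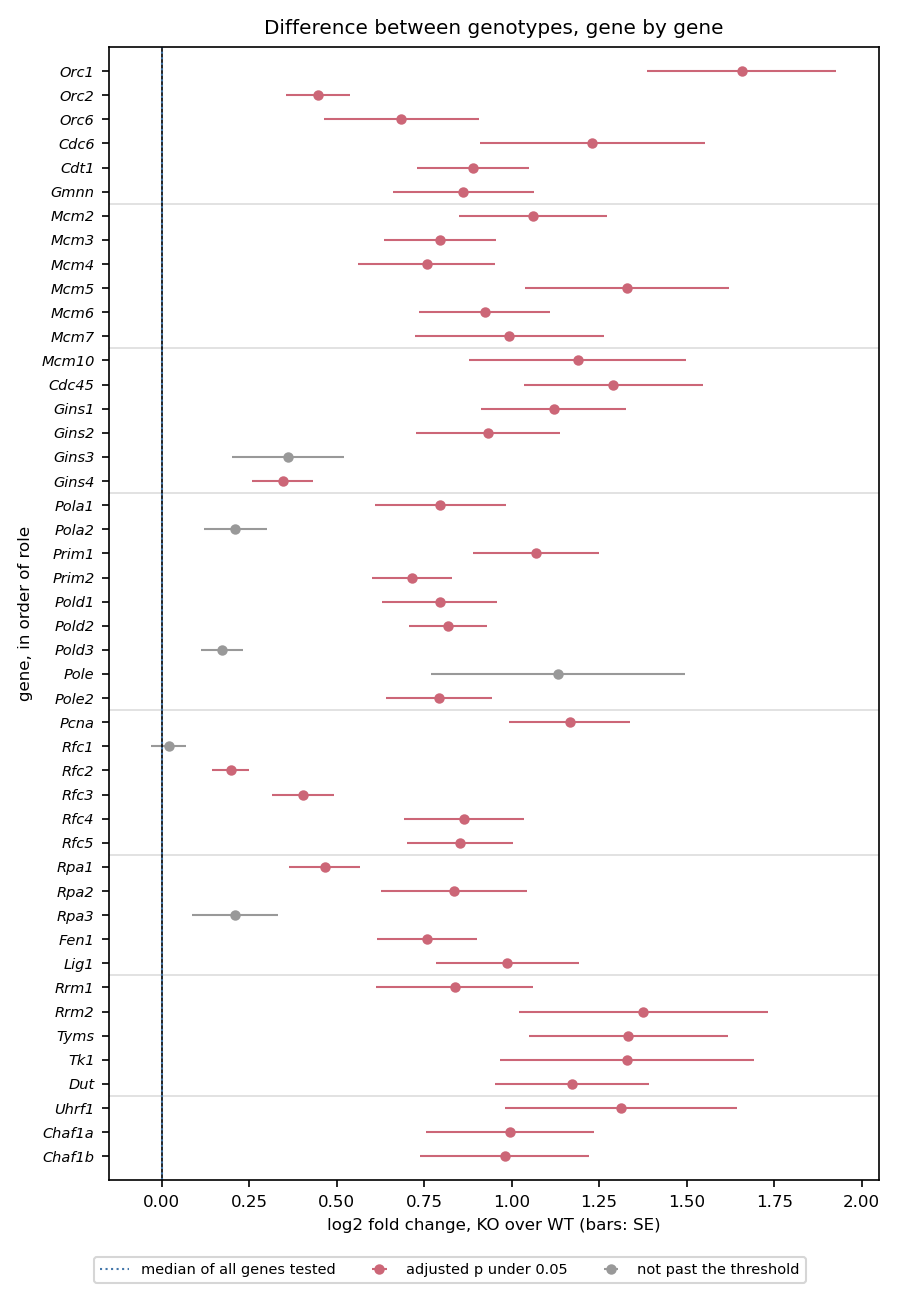
Log2 fold change of KO over WT for each of the 46 genes, in order of role, with bars of 1 SE; red points passed an adjusted p of 0.05 in edgeR and grey points did not. All 46 points lie at or to the right of 0, from 0.02 for Rfc1 to 1.66 for Orc1, and 6 are grey.

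Promoter sequence was compared because so many of these genes were higher together. The promoter table of RefSeq (GRCm38.p6), which holds 250 bases before to 50 bases after each start, had an entry for 38 of the 46 genes. E2F letters were searched as TTTCCCGC, TTTCGCGC, TTTGCCGC and TTTGGCGC on both strands, and 15 of the 38 promoters (39.5%) held a match, against 457 of the 9525 tested genes with a promoter (4.80%) and 704 of all 27025 genes in the table (2.61%). The CHR element, searched as TTTGAA and TTCGAA on both strands, which share no whole word with the E2F letters, was in 7 of the 38 (18.4%) and in 16.6% of tested genes. In the 24 promoters of 30 mitosis genes the order was the reverse, with E2F letters in 1 and CHR letters in 18 (75.0%). E2F letters were not particular to the 46 genes. They were in 9 of 29 promoters of other replication fork genes (31.0%) and 5 of 10 of E2F and pocket protein genes (50%). Among other nucleotide synthesis genes, many of which also rose, they were in 1 of 27 (3.70%). A match is a run of letters and not a bound site, and a link between the letters and the rise in KO was not tested. The stretches below were chosen because they lie before the RefSeq start, overlap no annotated exon and come from genes that rose in KO, those of helicase loading, the helicase, a polymerase and chromatin copying. They are printed 5′ to 3′ on the gene's strand with the E2F letters in capitals, which on the opposite strand read as their reverse complement.
Cdc6, chr11:98907987-98908046, plus strand: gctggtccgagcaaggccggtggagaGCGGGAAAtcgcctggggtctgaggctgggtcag
Mcm5, chr8:75109330-75109393, plus strand: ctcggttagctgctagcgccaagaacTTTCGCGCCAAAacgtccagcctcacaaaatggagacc
Mcm6, chr1:128359778-128359841, minus strand: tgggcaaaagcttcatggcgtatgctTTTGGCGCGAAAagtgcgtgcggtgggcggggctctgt
Mcm6, chr1:128359719-128359778, minus strand: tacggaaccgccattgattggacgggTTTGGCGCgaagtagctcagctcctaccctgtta
Pola1, chrX:93632260-93632319, minus strand: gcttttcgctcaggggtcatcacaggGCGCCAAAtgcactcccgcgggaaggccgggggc
Uhrf1, chr17:56304102-56304161, plus strand: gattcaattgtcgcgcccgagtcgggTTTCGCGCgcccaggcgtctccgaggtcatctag
In Mcm5 and in the upstream stretch of Mcm6, a match on each strand overlaps the other to give 12 unbroken capitals. The Cdc6 and Uhrf1 stretches lie inside the longer gene models of GENCODE, between exons. For Orc1, whose fold change was the largest of the 46, the match lies near the start, in a stretch that an annotated exon overlaps, and is shown with 11 bases on each side.
Orc1, chr4:108579416-108579445, plus strand: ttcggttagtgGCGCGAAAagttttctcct
Matches were not limited to genes that rose: Pold3 and Gins3, which did not pass the test, each held 1, while Pcna and Rrm2, which rose, held none in this window.

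**Figure D3:**
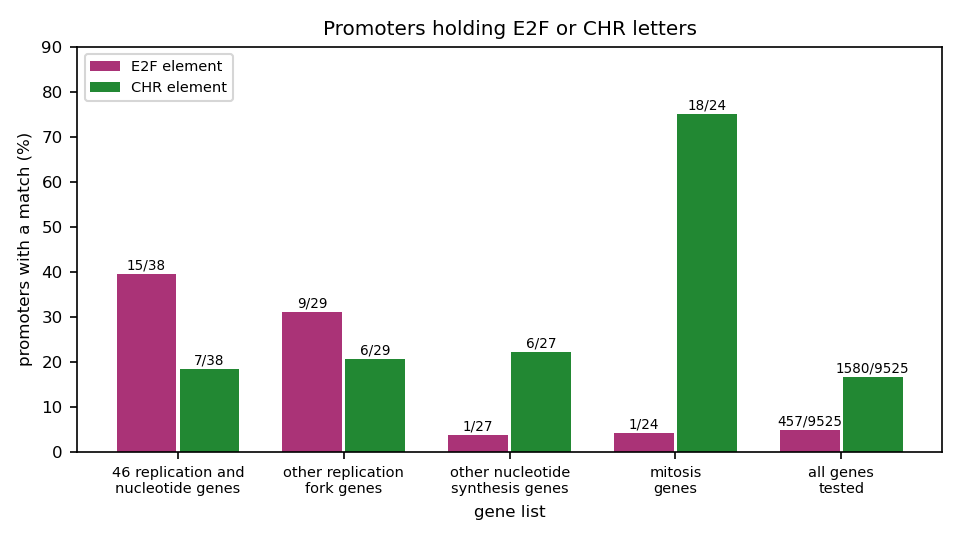
Share of promoters (y axis, percent) that hold E2F letters (purple) or CHR letters (green) for the 46 genes, 3 related lists and all tested genes, with the number of promoters above each bar. E2F letters reach 15 of 38 among the 46 genes and 1 of 24 among mitosis genes, and CHR letters 7 of 38 and 18 of 24. Other replication fork genes have E2F letters in 9 of 29 and other nucleotide synthesis genes in 1 of 27.

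All 6 genes of origin licensing rose. Orc1, the largest subunit of the origin recognition complex (ENSMUSG00000028587, GRCm38 chromosome 4, 108579423 to 108614833, plus strand), stood at 1.10, 0.642 and 1.03 CPM in WT 1 to WT 3 and 2.63, 3.71 and 2.53 CPM in KO 1 to KO 3. Orc1 rose by 1.66 on the log2 scale (SE 0.27, adjusted p = 0.00693). Every KO library was more than 2-fold above every WT library, the widest separation of the genotypes among the 46 genes. Orc2, a constitutive subunit of the same complex, rose less, from 19.8 ± 1.95 to 27.0 ± 1.86 CPM (SD, n = 3 here and below), which is 0.45 on the log2 scale. For Orc6 the means went from 6.93 ± 2.07 to 11.2 ± 1.64 CPM, close to the threshold (edgeR, adjusted p = 0.0492). Cdc6, the ATPase that recruits the helicase to the origin, was at 4.53, 3.17 and 6.55 CPM in WT 1 to WT 3 and 8.28, 15.2 and 9.97 CPM in KO 1 to KO 3. KO 2 stood above the other KO libraries and WT 2 below the other WT libraries. Cdc6 rose by 1.23 on the log2 scale (SE 0.32, adjusted p = 0.0281). Its partner Cdt1, which delivers the MCM ring, was at 32.1, 31.8 and 38.1 CPM in WT 1 to WT 3 and 49.6, 75.7 and 63.7 CPM in KO 1 to KO 3. Its WT libraries lay close together, and Cdt1 rose by 0.89 on the log2 scale (SE 0.16, adjusted p = 0.00945). Gmnn, geminin, the protein that binds Cdt1 to block relicensing, rose with them, from 18.7 ± 4.65 to 34.1 ± 6.04 CPM (log2 fold change 0.86). Cdc6, Gmnn and Orc6 lost their calls on leaving out any of WT 1, WT 2, KO 2 and KO 3, Orc6 also on leaving out KO 1, and Orc2 on leaving out WT 1.

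The 6 MCM genes, which encode the subunits of the helicase ring, all rose, by log2 fold changes of 0.76 (Mcm4) to 1.33 (Mcm5). Mcm5 (ENSMUSG00000005410, GRCm38 chromosome 8, 75109569 to 75128439, plus strand) stood at 37.4, 29.9 and 56.2 CPM in WT 1 to WT 3 and 75.7, 134 and 101 CPM in KO 1 to KO 3. Mcm5 rose by 1.33 on the log2 scale (SE 0.29, adjusted p = 0.0177). KO 2 was the highest library and WT 2 the lowest, and WT 3 was the highest WT library, below KO 1. Mcm6 (ENSMUSG00000026355, GRCm38 chromosome 1, 128331590 to 128359664, minus strand) was at 77.2, 67.1 and 101 CPM in WT 1 to WT 3 and 132, 186 and 148 CPM in KO 1 to KO 3, again with no overlap. Mcm6 rose by 0.92 on the log2 scale (SE 0.19, adjusted p = 0.0139). Mcm2 rose from 31.8 ± 7.04 to 66.5 ± 14.9 CPM and Mcm3 from 59.3 ± 9.07 to 103 ± 18.7 CPM. Mcm4 went from 34.7 ± 7.75 to 58.6 ± 11.1 CPM and Mcm7 from 36.5 ± 11.2 to 72.6 ± 19.1 CPM. For all 6 genes the libraries followed the same order, WT 2, WT 1, WT 3, KO 1, KO 3, KO 2 from low to high, an order found in 5.88% of all genes tested. The subunits form the ring in equal numbers, yet per kilobase of annotated exon their transcripts differed, with Mcm6 the highest in mean (17.5 ± 3.76 in WT and 33.3 ± 5.91 in KO CPM per kilobase) and Mcm2 the lowest (4.58 ± 1.01 in WT and 9.56 ± 2.14 in KO). Each of the 6 lost its call on leaving out WT 1. Mcm4, Mcm5 and Mcm7 also lost theirs on leaving out KO 2 or KO 3, and Mcm4 and Mcm7 on leaving out WT 2.

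Of the 6 genes that activate the helicase 5 rose. Cdc45, which joins the ring to form the active helicase, was at 4.15, 3.47 and 5.86 CPM in WT 1 to WT 3 and 8.64, 14.4 and 10.0 CPM in KO 1 to KO 3. Cdc45 rose by 1.29 on the log2 scale (SE 0.26, adjusted p = 0.0117). The KO libraries were all above the WT libraries. Mcm10, which helps to open the loaded rings, rose from 7.70 ± 3.12 to 17.6 ± 4.30 CPM, WT 3 being the highest WT library at 11.2 CPM and KO 1 the lowest KO library at 13.8 CPM. The 4 GINS subunits assemble in equal numbers but differed in their transcripts. On the log2 scale Gins1 rose by 1.12 and Gins2 by 0.93. Gins4 rose by 0.35, from 22.4 ± 1.03 to 28.4 ± 2.84 CPM. Gins3 was at 5.49, 4.04 and 4.72 CPM in WT 1 to WT 3 and 5.76, 7.00 and 5.62 CPM in KO 1 to KO 3 and did not pass (log2 fold change 0.36, adjusted p = 0.113). The lowest KO value of Gins3, 5.62 CPM, was just above its highest WT value, 5.49 CPM. Cdc45 and Gins2 lost their calls on leaving out WT 1, Mcm10 on leaving out any of WT 1, WT 2, KO 2 and KO 3, and Gins4 on leaving out any library but KO 1. Gins3 is the one of the 46 genes that lies within 10 Mb of the altered Cdh11 locus, 6.99 Mb away; 5 others (Orc6, Cdt1, Mcm5, Gins2 and Gins4) lie on the same chromosome at 17.3 Mb or more.

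Among 9 polymerase and primase genes 6 rose. Pold2, the small accessory subunit of polymerase delta (ENSMUSG00000020471, GRCm38 chromosome 11, 5872180 to 5878292, minus strand), had the smallest adjusted p of the 46 genes. It stood at 9.72, 9.81 and 10.7 CPM in WT 1 to WT 3 and 16.7, 20.5 and 16.0 CPM in KO 1 to KO 3. Pold2 rose by 0.82 on the log2 scale (SE 0.11, adjusted p = 0.00552). WT libraries differed by about 1 CPM and all KO libraries were well above them. Prim1 and Prim2, the catalytic and regulatory subunits of the primase that lays down RNA primers, both rose. Prim1 went from 6.49 ± 1.40 to 13.6 ± 2.21 CPM and Prim2 from 10.4 ± 0.582 to 17.0 ± 2.40 CPM. Pola1, the catalytic subunit of polymerase alpha, rose from 18.2 ± 4.01 to 31.7 ± 5.67 CPM. Its partner Pola2, at 19.4, 19.1 and 21.7 CPM in WT 1 to WT 3 and 21.2, 25.4 and 23.1 CPM in KO 1 to KO 3, did not pass (log2 fold change 0.21, adjusted p = 0.105), and its genotypes overlapped. Pola2 passed on leaving out KO 1 (adjusted p = 0.0412) and in limma-voom with sample quality weights (0.0310). Pold1, the catalytic subunit of polymerase delta, rose from 21.8 ± 4.10 to 37.7 ± 6.10 CPM. Pold3, another delta subunit, was at 38.8, 43.3 and 43.0 CPM in WT 1 to WT 3 and 46.4, 47.0 and 47.4 CPM in KO 1 to KO 3, with a log2 fold change of 0.17 (adjusted p = 0.0607). Pold3 showed no overlap of genotypes although it missed the threshold. It passed in limma-voom with sample quality weights (adjusted p = 0.0173), under upper quartile scaling (0.0241) and with library totals alone (0.0405). Pole, the catalytic subunit of polymerase epsilon, was at 7.18, 6.79 and 14.96 CPM in WT 1 to WT 3 and 15.9, 28.1 and 19.4 CPM in KO 1 to KO 3. The log2 fold change of Pole was 1.13 (SE 0.36) and missed the threshold (adjusted p = 0.0529). WT 3 of Pole was more than 2-fold above WT 2 and just below KO 1. Pole passed on leaving out WT 3 (adjusted p = 0.0161), in DESeq2 (0.00181), in limma-voom (0.0369; 0.0124 with sample quality weights), under upper quartile scaling (0.0480) and with the stricter filter (0.0468). Pole2, an accessory subunit of polymerase epsilon, rose from 4.45 ± 0.773 to 7.71 ± 0.558 CPM. Pola1 and Pold1 lost their calls on leaving out WT 1, and Pola1 also on leaving out KO 2.

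Of the 6 genes of the sliding clamp and its loader 5 rose. Pcna, the clamp that tethers polymerases to DNA (ENSMUSG00000027342, GRCm38 chromosome 2, 132249162 to 132253314, minus strand), was the most abundant of the 46 genes per kilobase of exon (101 ± 16.0 in WT and 227 ± 46.9 in KO CPM per kilobase) and stood at 238, 207 and 284 CPM in WT 1 to WT 3 and 457, 672 and 507 CPM in KO 1 to KO 3. Pcna rose by 1.17 on the log2 scale (SE 0.17, adjusted p = 0.00677). The genotypes were well apart, with KO 1 at 1.61 times WT 3. A pseudogene named after it, Pcna-ps2, was at 36.5, 30.4 and 43.0 CPM in WT 1 to WT 3 and 72.7, 112 and 79.9 CPM in KO 1 to KO 3, so some counts of the clamp may be divided between the copies; summed, they went from 279.6 ± 44.7 to 633 ± 133 CPM. Rfc1, the large subunit of the clamp loader, was at 67.5, 65.1 and 67.7 CPM in WT 1 to WT 3 and 66.9, 68.7 and 67.4 CPM in KO 1 to KO 3, a range of 1.06-fold over all 6 libraries. Its log2 fold change was 0.02 (SE 0.05, adjusted p = 0.774). No library stood apart and the genotypes overlapped. Its smaller partners went from Rfc2, which rose from 42.8 ± 0.706 to 49.1 ± 1.98 CPM (log2 fold change 0.20), through Rfc3 (0.40) to Rfc5 (0.85) and Rfc4 (0.86), which rose from 4.92 ± 0.878 to 8.96 ± 1.43 CPM. Rfc2 lost its call on leaving out any library but KO 1, and Rfc4 on leaving out WT 1. Rfc2 to Rfc5 also form part of other clamp loaders, which carry a different large subunit.

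**Figure D4:**
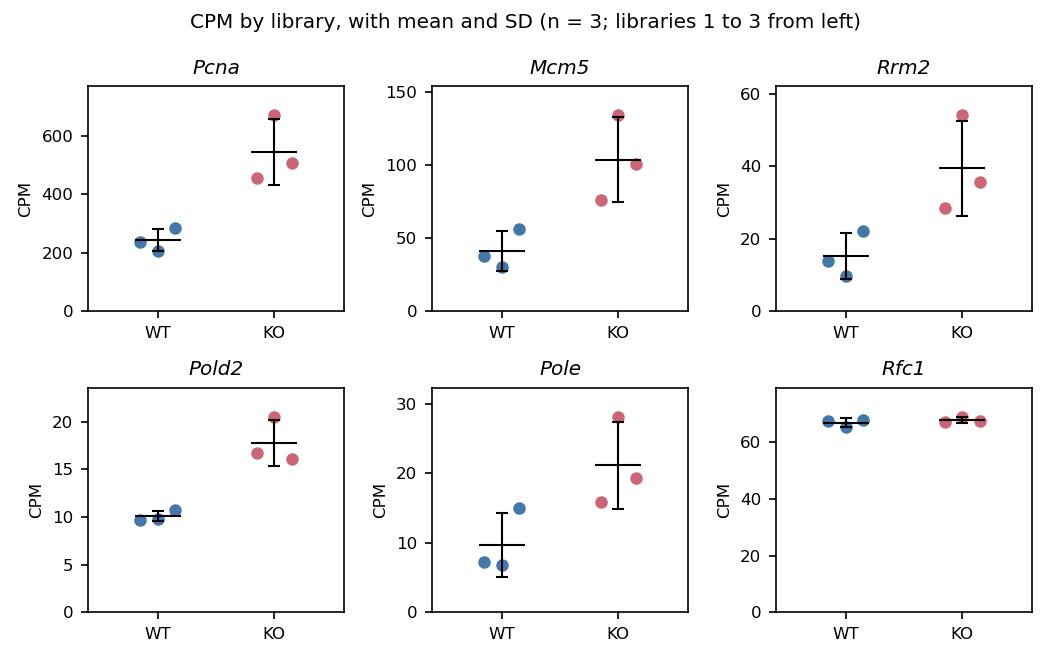
CPM of 6 genes in each library (points, libraries 1 to 3 from left to right in each genotype) with the mean and SD (black, n = 3); all y axes start at 0. The genotypes separate for Pcna, Mcm5, Rrm2 and Pold2, WT 3 of Pole comes close to KO 1, and Rfc1 stays between 65.1 and 68.7 CPM.

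Genes of single-strand binding and lagging-strand joining rose in 4 of 5 cases. The RPA complex coats exposed single strands. Its large subunit Rpa1 rose from 65.2 ± 4.91 to 90.1 ± 11.4 CPM and Rpa2 from 14.8 ± 2.98 to 26.5 ± 6.29 CPM. The small subunit Rpa3, at 7.74, 6.19 and 7.999 CPM in WT 1 to WT 3 and 8.78, 8.31 and 8.31 CPM in KO 1 to KO 3, did not pass (log2 fold change 0.21, adjusted p = 0.216). Fen1, the nuclease that trims flaps from Okazaki fragments, was at 34.7, 31.8 and 42.3 CPM in WT 1 to WT 3 and 52.7, 71.2 and 60.0 CPM in KO 1 to KO 3. Fen1 rose by 0.76 on the log2 scale (SE 0.14, adjusted p = 0.0105). Lig1, the ligase that seals them, was at 28.0, 23.1 and 36.4 CPM in WT 1 to WT 3 and 48.1, 70.5 and 54.9 CPM in KO 1 to KO 3. Lig1 rose by 0.99 on the log2 scale (SE 0.21, adjusted p = 0.0152). In both genes WT 3 was the highest WT library and still below KO 1, and Lig1 lost its call on leaving out WT 1. So did Rpa1, and Rpa2 lost its call on leaving out WT 1, WT 2 or KO 3.

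All 5 genes of deoxynucleotide supply rose. Their median on the log2 scale, 1.33, was the highest of the 8 roles. Rrm2, the small subunit of ribonucleotide reductase, whose abundance limits the enzyme in cycling cells (ENSMUSG00000020649, GRCm38 chromosome 12, 24708241 to 24714146, plus strand), was at 13.8, 9.62 and 22.1 CPM in WT 1 to WT 3 and 28.5, 54.1 and 35.7 CPM in KO 1 to KO 3. Rrm2 rose by 1.38 on the log2 scale (SE 0.36, adjusted p = 0.0289). The highest library held 5.62 times the CPM of the lowest, and within each genotype the spread was wide. Rrm1, the large subunit of the same enzyme, rose from 58.6 ± 13.5 to 105 ± 25.7 CPM, a smaller log2 fold change of 0.84. Tk1, thymidine kinase, was at 12.4, 7.55 and 18.8 CPM in WT 1 to WT 3 and 23.9, 43.7 and 29.9 CPM in KO 1 to KO 3, with WT 2 lowest and KO 2 highest. Tk1 rose by 1.33 on the log2 scale (SE 0.36, adjusted p = 0.0336). Tyms, thymidylate synthase, was at 5.46, 4.34 and 8.38 CPM in WT 1 to WT 3 and 12.0, 19.7 and 14.2 CPM in KO 1 to KO 3. Tyms rose by 1.33 on the log2 scale (SE 0.28, adjusted p = 0.0155), and its genotypes did not overlap. Dut, which removes dUTP before it is built into DNA, was at 7.90, 6.08 and 10.0 CPM in WT 1 to WT 3 and 14.8, 22.4 and 16.9 CPM in KO 1 to KO 3. Dut rose by 1.17 on the log2 scale (SE 0.22, adjusted p = 0.0105) and was called in each fit that left out 1 library. Rrm1, Rrm2 and Tk1 lost their calls on leaving out any of WT 1, WT 2, KO 2 and KO 3, and Tyms on leaving out WT 1.

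The 3 genes that copy chromatin behind the fork rose. Uhrf1, which recognises hemimethylated DNA and recruits the maintenance methyltransferase Dnmt1 (ENSMUSG00000001228, GRCm38 chromosome 17, 56303321 to 56323486, plus strand), was at 20.3, 17.1 and 34.6 CPM in WT 1 to WT 3 and 43.3, 80.8 and 54.6 CPM in KO 1 to KO 3. Uhrf1 rose by 1.31 on the log2 scale (SE 0.33, adjusted p = 0.0271). KO 2 stood far above KO 1, and WT 3 above WT 1 and WT 2. Chaf1a and Chaf1b, subunits of the histone chaperone that follows Pcna, both rose. Chaf1a went from 19.2 ± 4.83 to 38.4 ± 9.89 CPM and Chaf1b from 8.81 ± 2.78 to 17.4 ± 3.19 CPM. Leaving out any of WT 1, WT 2, KO 2 and KO 3 ended the calls of Uhrf1 and Chaf1a, and leaving out WT 1, KO 2 or KO 3 that of Chaf1b. Dnmt1 itself, named after its values were seen, was at 147, 154 and 176 CPM in WT 1 to WT 3 and 169, 227 and 198 CPM in KO 1 to KO 3 and did not pass (adjusted p = 0.0752).

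The 46 genes also varied together between libraries of 1 genotype. WT 2 was the lowest WT library for 41 of the 46 genes (36.7% of all genes tested) and WT 3 the highest for 41 (35.0%). KO 1 was the lowest KO library for 39 (39.2%), and KO 2 was the highest of all 6 libraries for 43 (30.4%). The full order WT 2, WT 1, WT 3, KO 1, KO 3, KO 2 held for 34 genes (5.88%). Over the 46 genes the median deviation of log2 CPM from a gene's mean over the 6 libraries was -0.49, -0.73 and -0.13 in WT 1 to WT 3 and 0.24, 0.73 and 0.40 in KO 1 to KO 3, while the median over all genes lay within 0.01 of 0 in each library. The step between the nearest libraries of the 2 genotypes was thus smaller than the range within either: the median ratio of KO 1 to WT 3 was 1.25, that of WT 3 to WT 2 was 1.51 and that of KO 2 to KO 1 was 1.41. All 3 ratios had a median of 1.00 to 1.01 over all genes. Without WT 2 and KO 2 together, a fit added after the data were seen, the median log2 fold change of the 46 genes was 0.62, and 13 of them rose where 5.49% of all genes did. With WT 1 and KO 3 left out instead, edgeR called 0 of all genes (3576 at an unadjusted p under 0.05), and 36 of the 46 had an unadjusted p under 0.05.

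Spread within a genotype differed widely among the 46 genes. The pooled SD of log2 CPM within genotypes was 0.29 at the median, against 0.12 over all genes, and ran from 0.03 for Rfc1 and 0.04 for Rfc2 to 0.54 for Pole and Rrm2 and 0.56 for Tk1. Tk1 was also the gene with the widest range over the 6 libraries, 5.79-fold. Pold2 and Prim2, with 0.14 and 0.15, combined a small spread with a rise, and were among the genes with the smallest adjusted p.

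**Figure D5:**
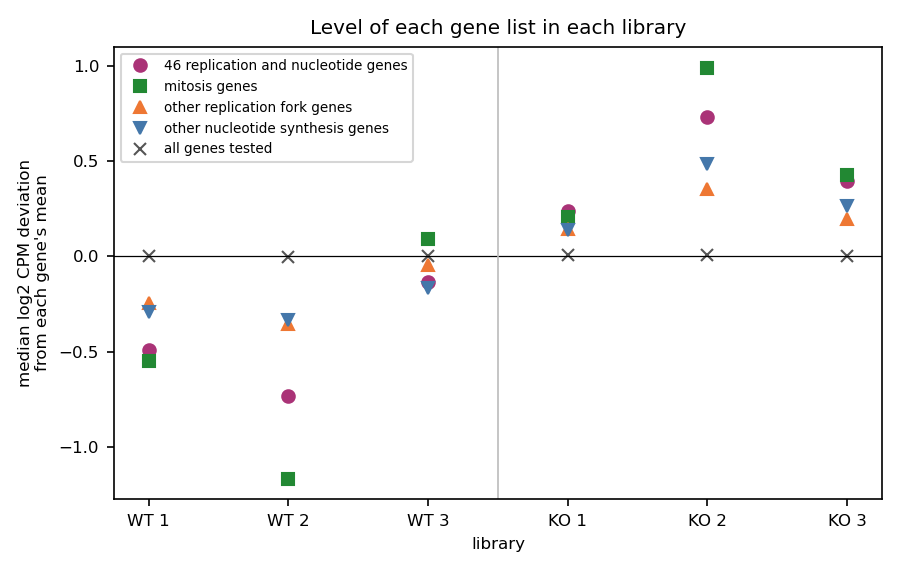
Median deviation of log2 CPM from each gene's mean over 6 libraries (y axis) in each library (x axis) for the 46 genes, 3 related lists and all genes tested. The 46 genes run from -0.73 in WT 2 to 0.73 in KO 2, mitosis genes span a wider range with WT 3 above 0, and all genes stay at 0.

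Related lists were read from the same fit, beside 18.5% of all genes rising and 16.8% falling. Of 34 other replication fork genes 20 rose and 0 fell, with a median log2 fold change of 0.48. Leaving out WT 1 gave 7 calls, WT 2 or KO 2 gave 13 and KO 3 gave 12. The 4 called genes with the largest differences were Pclaf, Recql4, Dscc1 and Clspn. Pclaf, a Pcna-binding factor, rose from 13.6 ± 6.34 to 34.6 ± 8.599 CPM, and Recql4, a helicase of replication initiation, from 1.90 ± 0.477 to 4.84 ± 1.31 CPM. Dscc1, part of another clamp loader, rose from 1.496 ± 0.251 to 3.73 ± 0.724 CPM, and Clspn, claspin of the replication checkpoint, from 10.1 ± 4.37 to 23.0 ± 5.79 CPM. Recql4 and Dscc1 were called in each fit that left out 1 library. Pclaf lost its call on leaving out any of WT 1, KO 1, KO 2 and KO 3, and Clspn on leaving out any library but WT 3. Orc3, Orc4 and Orc5, the remaining core origin subunits measured, had log2 fold changes of -0.08, 0.03 and 0.02 and did not pass; they were named after their values were seen, for comparison with Orc1.

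Of 31 other nucleotide synthesis genes 21 rose and 2 fell, with a median of 0.54. Ctps, which makes CTP, rose from 5.63 ± 1.28 to 13.8 ± 2.61 CPM, and Dctd, which deaminates dCMP, from 1.70 ± 0.500 to 4.22 ± 0.567 CPM. Nme1, a nucleoside diphosphate kinase, rose from 23.2 ± 1.56 to 45.6 ± 5.25 CPM. Samhd1, which breaks down deoxynucleotides, was at 427, 553 and 393 CPM in WT 1 to WT 3 and 364, 299 and 313 CPM in KO 1 to KO 3 and fell (log2 fold change -0.49, SE 0.14, adjusted p = 0.0344). Tk2, the mitochondrial thymidine kinase, was at 59.0, 54.2 and 51.4 CPM in WT 1 to WT 3 and 47.1, 35.6 and 40.9 CPM in KO 1 to KO 3 and fell (log2 fold change -0.41, SE 0.11, adjusted p = 0.0237). The genotypes overlapped in neither of these 2. They were singled out after their values were seen. Neither was called on leaving out WT 1, WT 2 or KO 3, and 1 of them on leaving out KO 2. Leaving out WT 1 took the calls of this list from 23 to 15; Ctps, Dctd and Nme1 were called in each fit that left out 1 library.

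Mitosis genes had a similar median difference and a wider spread. Of 30, 9 rose and 0 fell in edgeR, with a median log2 fold change of 1.00, and the count moved with the method and the libraries. DESeq2 called 18 and limma-voom 14. In edgeR, leaving out WT 3 gave 29 and leaving out WT 1 gave 0, where 8 had an unadjusted p under 0.05. It gave 4 on leaving out KO 1 and 1 on leaving out WT 2, KO 2 or KO 3. Their pooled SD within genotypes was 0.54 at the median, and their library medians were -0.55, -1.16 and 0.09 in WT 1 to WT 3 and 0.20, 0.99 and 0.43 in KO 1 to KO 3. WT 3 was thus nearly level with KO 1, the median ratio of KO 1 to WT 3 being 1.06. KO 1 was above WT 3 for 19 of 30 mitosis genes (63.3%), beside 50.1% of all genes tested. The same held for 44 of the 46 replication and nucleotide genes, 79.4% of other fork genes and 87.1% of other nucleotide synthesis genes. Whether the lists differ in this was not tested. Mki67, the proliferation marker Ki-67, was at 87.9, 60.3 and 148 CPM in WT 1 to WT 3 and 130.1, 200.2 and 139 CPM in KO 1 to KO 3 and did not pass (adjusted p = 0.171), nor did Top2a, topoisomerase II alpha, at 56.3, 36.9 and 92.6 CPM in WT 1 to WT 3 and 94.5, 172 and 111 CPM in KO 1 to KO 3 (adjusted p = 0.0750). Spc25 of the kinetochore rose from 6.51 ± 1.98 to 14.98 ± 3.82 CPM and Aurka, the mitotic kinase Aurora A, from 6.95 ± 3.18 to 16.4 ± 3.84 CPM. Ube2c and Birc5 rose by 1.24 and 1.18 on the log2 scale. Both lost their calls on leaving out any library but WT 3, Aurka on leaving out any of WT 1, WT 2, KO 2 and KO 3, and Spc25 on leaving out WT 1.

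Per kilobase of annotated exon, which allows genes to be compared, Pcna stood apart and the remaining 45 genes ran from Orc1, 0.266 ± 0.0711 in WT and 0.849 ± 0.188 in KO CPM per kilobase, to Mcm6. Within the origin machinery Orc1 and Cdc6 (0.908 ± 0.325 in WT and 2.13 ± 0.694 in KO) were scarce and Cdt1 (10.8 ± 1.14 in WT and 20.1 ± 4.17 in KO) and Gmnn (12.8 ± 3.17 in WT and 23.2 ± 4.13 in KO) more abundant. Among clamp loader subunits Rfc1 was the highest in both genotypes (11.1 ± 0.239 in WT and 11.2 ± 0.160 in KO) while Rfc4 (3.21 ± 0.572 in WT and 5.85 ± 0.931 in KO) and Rfc5 (2.97 ± 0.545 in WT and 5.35 ± 0.742 in KO) lay beside Rfc3 (3.23 ± 0.239 in WT and 4.28 ± 0.240 in KO) in WT and above it in KO. Exon lengths include every annotated isoform, so genes with long rare exons read low.

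Counting sets a limit for 12 of the 46 genes, whose exons overlap a coding gene on the opposite strand, since the library kit keeps the strand but the strand setting of the counting is not given in the sources used here. Eif4a2 reached 9274 counts beside as few as 111 for Rfc4, Vps35 9204 beside 131 for Orc6, Wsb2 4524 beside 310 for Rfc5 and Ufd1 1403 beside 92 for Cdc45. Lat2 reached 7574 beside 1118 for Rfc2. The other 7 are Orc2, Mcm7, Gins2, Fen1, Lig1, Tk1 and Chaf1a.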

How the data were processed

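RNA from 3 WT and 3 KO macrophage cultures was sequenced from strand-keeping libraries, per the labels' protocols. The authors deposited whole-number counts per gene and a normalized signal per gene; the submitters' processing notes name DRAGEN, DESeq2 and mm10, with versions and the counting settings not given in the sources used here. The deposited signal departs from a single scaling per library: its factor lay over 1% from the library median in 57.2 to 71.7% of 11433 genes, so it served only as an alternative. Counts were fitted with edgeR 4.0.16 (R 4.3.3; robust quasi-likelihood, TMM, filterByExpr with a minimum count of 10) over the whole table, and p-values were adjusted by Benjamini-Hochberg over 12862 genes at a threshold of 0.05. Log2 CPM used a prior count of 2. The SE of a log2 fold change was worked back from the test, as its absolute value over the square root of F. The fit was tested on simulated counts in which each gene was drawn independently, so variation shared between genes was not covered. Gene names, positions and exon lengths came from GENCODE M21 (GRCm38), promoters from RefSeq. Totals of 27170943 to 37113689 counts limit precision only for the scarcest genes, the smallest count of the 46 being 17, and 3 libraries a genotype limit the rest. Alternatives used DESeq2 1.42.0, limma 3.58.1, other scalings and filters, and libraries left out. The 46 genes and the related lists were chosen with earlier results of these data known. All 46 may be named; from each related list, up to 4 called genes with the largest absolute log2 fold change, with Mki67 and Top2a whatever their call. Some genes of the related and marker lists are not reported here by name.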

Additional observations from a re-analysis of the deposited data

How the results depend on the processing

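The 46 genes gave 38 to 43 calls under other tests, scalings, a stricter filter and the deposited signal, all higher in KO, and their median log2 fold change stayed between 0.62 and 1.02 in every fit. With no filter on low counts, where more genes are tested, calls fell to 20 of the 46, 12 of the other fork genes and 1 of the mitosis genes. Mitosis calls were 18 in DESeq2, 14 in limma-voom, 25 with sample quality weights and 14 on the deposited signal, and E2F and pocket protein calls were 11 with quality weights. The cause was not tested. Upper quartile scaling gave 2933 genes higher and 1621 lower, where the reported fit gave 2375 and 2157. Leaving out 1 library gave 1979 (WT 1) to 5456 (KO 1) calls over all genes, 12 to 40 of the 46, 7 to 21 other fork genes, 15 to 23 other nucleotide genes, 1 to 7 E2F and pocket genes and 0 to 29 mitosis genes. Leaving out WT 2 and KO 2 together, chosen after seeing the data, gave 1378 calls over all genes and 13, 5, 15, 1 and 1 in those lists, with 6 G1 regulators. Leaving out WT 1 and KO 3, also chosen after seeing the data, gave 0 over all genes and 0 in each list in edgeR, with 3576 genes at an unadjusted p under 0.05. The log2 fold change of Rfc1 ran from -0.00313 without WT 2 to 0.0284 without WT 3, was -0.00980 without WT 2 and KO 2, and reached 0.0781 under upper quartile scaling and 0.149 on the deposited signal, with no call in any fit. No paired analysis was possible because the labels give no replicate numbers.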

Other observations

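Regulators upstream of replication moved in both directions. Of 16 genes of G1 control 7 rose and 3 fell, beside 18.5% of all genes rising and 16.8% falling, with a median log2 fold change of 0.35. Cyclin E genes were among those that rose: Ccne1 was at 3.03, 3.13 and 4.03 CPM in WT 1 to WT 3 and 7.09, 11.4 and 8.24 CPM in KO 1 to KO 3, and Ccne2 went from 4.46 ± 2.21 to 11.5 ± 3.65 CPM. So were Cdkn2a and Cdkn2b. Cdkn2a, which was scarce, was at 0.375, 0.189 and 0.517 CPM in WT 1 to WT 3 and 1.93, 2.03 and 1.96 CPM in KO 1 to KO 3. Cdkn2b went from 1.42 ± 0.465 to 4.26 ± 0.487 CPM. Every KO library lay above every WT library for all 4, as in 27.0% of all genes. Cdkn1b was among the 3 that fell, from 75.3 ± 0.468 to 49.1 ± 8.38 CPM, and was named after its values were seen. Ccne1, Cdkn2a and Cdkn2b were called in each fit that left out 1 library, and Ccne2 lost its call on leaving out any library but WT 3.

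Of 13 E2F and pocket protein genes 4 rose and 2 fell, beside 18.5% of all genes rising and 16.8% falling, with a median of 0.29. E2f1, an activator, went from 34.1 ± 3.81 to 46.3 ± 4.87 CPM, its partner Tfdp1 from 50.2 ± 4.75 to 68.5 ± 5.56 CPM and Rbl1, the pocket protein p107, from 26.4 ± 3.55 to 37.7 ± 6.54 CPM. Rbl2, the pocket protein p130, fell from 76.3 ± 1.18 to 58.6 ± 4.27 CPM. Rbl2 was called in each fit that left out 1 library. E2f1 and Rbl1 lost their calls on leaving out any of WT 1, WT 2, KO 2 and KO 3, and Tfdp1 on leaving out WT 1. With WT 1 left out, 1 of the 13 was called, with KO 2 or KO 3 left out 2, and with WT 2 left out 3.

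The letters CCAAT, searched on both strands in the promoter window, were in 24 of the 38 promoters of replication and nucleotide genes (63.2%), in 19 of 24 mitosis promoters (79.2%) and in 43.4% of tested genes.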
